A study of Mus musculus with 10 samples.

Results

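The genes described here are 30 mouse genes of cholesterol synthesis and of lipid synthesis driven by the sterol regulatory element binding proteins (SREBPs), out of 23284 features in the deposited tables. They were chosen by name from the pathway, as 17 enzymes that turn acetyl-CoA into cholesterol, 5 regulators, 1 sterol transfer protein and 7 genes of cytosolic acetyl-CoA and fatty acid synthesis. All 30 were found, and none was at the lower limit of the values in any of the 10 libraries. RNA came from the colorectum of BALB/c mice aged 7 weeks, with 2 libraries in each of 5 groups. Mice of 4 groups were given 2% dextran sodium sulfate (DSS), which injures the colonic epithelium, and received small RNA carried by super carbonate apatite (sCA) nanoparticles through the tail vein. The injected RNA was a control miRNA (NC-miR) in mice sampled on day 2, NC-miR in mice sampled on day 4, miR-29a in mice sampled on day 4 or miR-29b in mice sampled on day 4. The fifth group was normal mice, labelled day 0, with neither DSS nor injections.

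DSS, the injections, the carrier and the day cannot be told apart in any comparison with normal mice, because all 4 DSS groups had all of them. The labels give injections on days 1 to 3 for the day 2 group as well, so what those mice had received by day 2 is not clear. The labels do not say whether the 2 libraries of a group came from separate mice, so p-values measure the spread between these libraries, which may be technical. In bulk tissue, fewer cells of a type and less RNA per cell cannot be told apart. The deposited values are on a log2 scale relative to an unnamed baseline of each gene. They can therefore be compared between libraries but not between genes, and they carry no read depth. All 8 columnar epithelium markers looked at, among them Cdx2, Vil1 and Epcam, were above the lower limit in all 10 libraries.

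Cholesterol is built from acetyl-CoA through mevalonate, isopentenyl units, squalene and lanosterol. The genes of this route share control by SREBP2, the product of Srebf2, while SREBP1, the product of Srebf1, acts more on fatty acid synthesis. When membrane sterol is low, Scap escorts SREBP from the endoplasmic reticulum to the Golgi, where proteases release the part that enters the nucleus. When sterol is high, Insig1 and Insig2 hold Scap back, and Insig1 is itself an SREBP target. In the intestine, epithelial cells make cholesterol as well as absorb it.

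Promoters of the 5 members that rose in DSS mice are shown first, because SREBPs bind sterol regulatory elements close to the start of their targets and act there with the CCAAT-binding factor NF-Y. Each line holds the 250 bases before a transcription start from RefSeq, build GRCm38.p6, read 5′ to 3′ on the strand of the gene. For Lss the start used lies downstream of the RefSeq gene start at chr10:76531565, so its stretch ends within the annotated gene. Sc4mol is the older symbol of Msmo1. Capitals mark matches on either strand to TCACNCCAC, a form of the sterol regulatory element, or to CCAAT, the core letters bound by NF-Y, which reads ATTGG on the other strand.
Hmgcs1, chr13:119690101-119690350, plus strand: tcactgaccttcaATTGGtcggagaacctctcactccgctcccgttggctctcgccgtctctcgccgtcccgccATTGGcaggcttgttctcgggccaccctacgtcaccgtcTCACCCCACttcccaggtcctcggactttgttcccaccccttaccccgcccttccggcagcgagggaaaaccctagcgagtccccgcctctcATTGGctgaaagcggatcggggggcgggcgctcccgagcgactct
Idi1, chr13:8885356-8885605, plus strand: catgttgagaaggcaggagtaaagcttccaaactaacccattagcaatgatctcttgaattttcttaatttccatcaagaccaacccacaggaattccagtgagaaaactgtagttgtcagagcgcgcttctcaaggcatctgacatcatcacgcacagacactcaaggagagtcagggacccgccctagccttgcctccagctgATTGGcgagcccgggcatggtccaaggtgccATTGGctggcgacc
Lss, chr10:76531355-76531604, plus strand: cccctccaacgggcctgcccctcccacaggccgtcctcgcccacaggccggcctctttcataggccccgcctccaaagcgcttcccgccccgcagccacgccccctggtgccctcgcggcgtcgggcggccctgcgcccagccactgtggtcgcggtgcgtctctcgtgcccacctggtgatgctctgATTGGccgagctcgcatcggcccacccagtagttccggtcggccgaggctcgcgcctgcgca
Cyp51, chr5:4104698-4104947, minus strand: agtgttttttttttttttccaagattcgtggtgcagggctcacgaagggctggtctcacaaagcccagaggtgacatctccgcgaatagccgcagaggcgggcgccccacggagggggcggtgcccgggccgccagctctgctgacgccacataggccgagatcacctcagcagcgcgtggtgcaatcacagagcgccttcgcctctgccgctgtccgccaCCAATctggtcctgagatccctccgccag
Sc4mol, chr8:64733579-64733828, minus strand: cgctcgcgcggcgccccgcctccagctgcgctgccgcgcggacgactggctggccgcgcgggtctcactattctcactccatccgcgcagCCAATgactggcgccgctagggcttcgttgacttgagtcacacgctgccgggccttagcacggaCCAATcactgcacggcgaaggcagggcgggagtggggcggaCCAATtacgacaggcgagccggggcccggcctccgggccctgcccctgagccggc

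In these stretches, Hmgcs1 had 1 match to TCACNCCAC, which lay 137 to 129 bases before the start. Its CCAAT matches lay 237 to 233, 176 to 172 and 45 to 41 bases before the start. A CCAAT match lay 45 to 41 and another 14 to 10 bases before the start of Idi1, 62 to 58 before that of Lss and 29 to 25 before that of Cyp51. Sc4mol had 3 CCAAT matches, the nearest at 55 to 51 bases before the start. Windows of 300 bases, the 250 shown plus 50 after the start, were found for 24 of the 30 members. CCAAT was present for 20 of these 24 genes (83.3%), against 41% of all 26994 genes with such a window. It was not confined to members that rose. Of those with negative differences between the mean of the DSS groups and normal, Tm7sf2, Ebp, Acss2, Pmvk and Insig2 had a match. Elovl6 had none and Scd1 had no window. TCACNCCAC was present for 1 of the 24 (4.17%), against 1.44% of all genes. The E-box CACGTG, another sequence that SREBPs can bind, was present for 4 of the 24 (16.7%), against 8.09% of all genes, and the printed promoters had none. A match is a string of letters and not a shown binding site.

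Several sterol synthesis enzymes rose in the DSS mice. In the mean of the 4 DSS groups against normal, 5 of the 17 enzymes rose, namely Idi1, Lss, Sc4mol, Cyp51 and Hmgcs1, and none fell, by limma with an adjusted p under 0.05. No other member passed, so 5 of 30 members were called, where 1.42% of the 13050 features tested were called in either direction and 1.07% as higher. These calls were lost without normal replicate 2, and all but that of Idi1 without normal replicate 1. Most calls over all features were lost in the same fits. With no filter on low values 1 member was called, Idi1, where 65 of 23284 features were called, against 185 of 13050 as reported. In that setting Lss, Sc4mol, Cyp51 and Hmgcs1 had adjusted p of 0.0739, 0.0576, 0.0971 and 0.0879 by limma, in that order. The median difference over the 17 enzymes was 0.63 on the log2 scale, over all 30 members it was 0.43, and over all features tested it was -0.04. For 11 of the 17 enzymes, all 8 DSS libraries lay above both normal libraries. The same held for 13 of the 30 members (43.3%) and for 5.74% of all features tested. The 2 members beside the enzymes were Insig1 and Fasn. At an unadjusted p under 0.05, 16 members were higher and 2 were lower in the DSS mean, against 7.52% and 9.2% of all features.

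**Figure D1:**
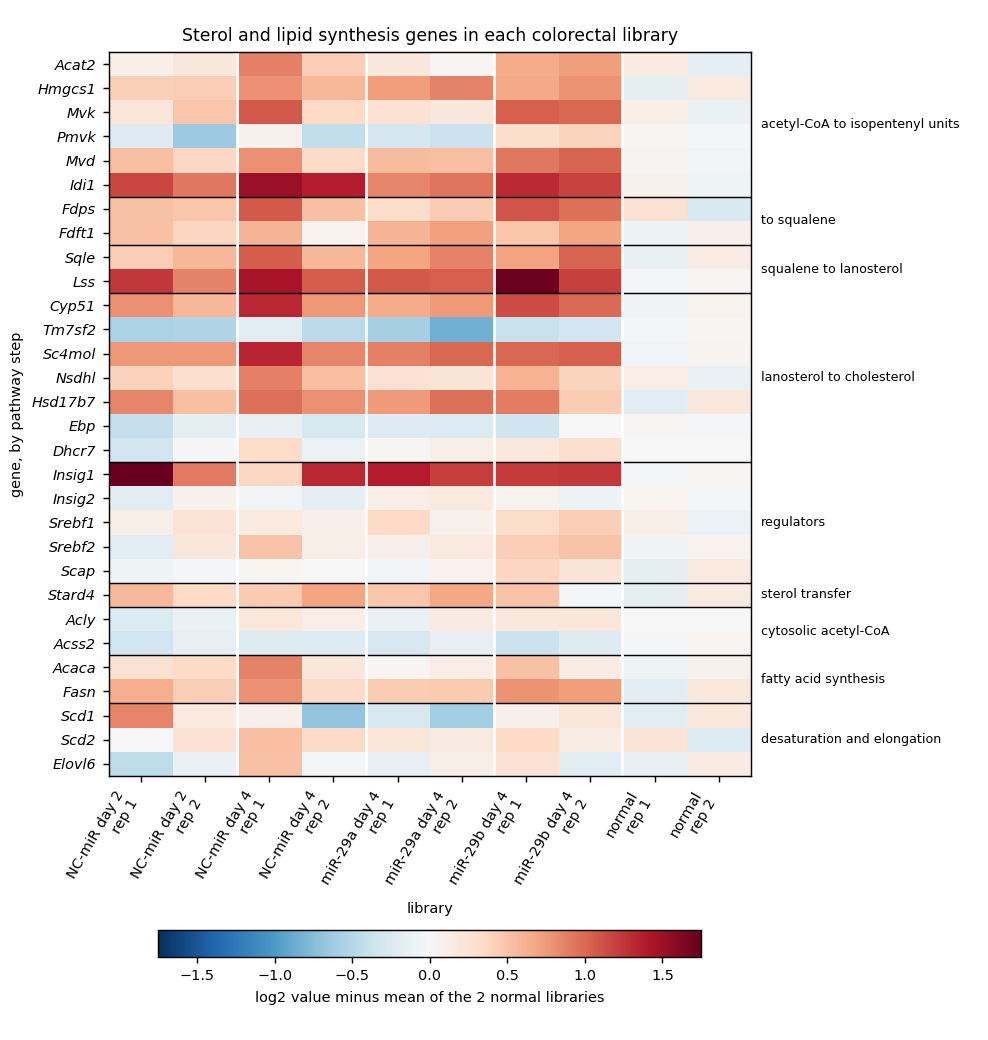
Deposited log2 values of the 30 genes (rows, by pathway step) in each of the 10 libraries (columns), minus the mean of the 2 normal libraries, with red for higher and blue for lower. Most enzyme rows are red in all 8 DSS columns, Tm7sf2 is blue in all 8, and Insig1 is palest among the DSS columns in NC-miR day 4 replicate 1.

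The first step group leads from acetyl-CoA to isopentenyl units and holds Acat2, Hmgcs1, Mvk, Pmvk, Mvd and Idi1. Idi1, isopentenyl-diphosphate isomerase, makes the reactive unit that chains are built from. In log2 units its libraries read 0.44 and 0.19 with NC-miR on day 2, 0.78 and 0.65 with NC-miR on day 4, 0.12 and 0.20 with miR-29a and 0.58 and 0.45 with miR-29b, against -0.65 and -0.81 in the normal libraries. The lowest DSS library stood 0.77 above the higher normal library, so the groups did not overlap. The log2 difference of the mean of the DSS groups from normal was 1.15 ± 0.11 (limma SE), a 2.23-fold increase, with adjusted p = 0.00445 by limma. Idi1 also rose in each DSS group on its own, by 1.04 for NC-miR day 2 (adjusted p = 0.0162), 1.44 for NC-miR day 4 (adjusted p = 0.00749), 0.89 for miR-29a (adjusted p = 0.0499) and 1.24 for miR-29b (adjusted p = 0.0164). Of 10 fits with a library left out, 3, 3, 10 and 4 lost these calls in that order. It was the only member called by the F test over the 5 groups (adjusted p = 0.0281), which called 0.375% of all features. Left out one at a time, only normal replicate 2 took the call of the DSS mean away, at a difference of 1.07 and adjusted p = 0.102.

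Hmgcs1 encodes the cytosolic synthase that condenses acetyl-CoA into HMG-CoA. Its log2 values were 0.00 and 0.02 with NC-miR on day 2, 0.38 and 0.16 with NC-miR on day 4, 0.32 and 0.45 with miR-29a and 0.25 and 0.37 with miR-29b, against -0.59 and -0.24 in the normal libraries. The day 2 libraries were the lowest of the 8 DSS libraries, and all 8 lay above the normal ones. The difference of 0.66 ± 0.12, or 1.58-fold, passed with adjusted p = 0.0468, and this call was lost whichever of the 10 libraries was left out (adjusted p 0.0556 to 0.305).

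The other 4 genes of this step group did not pass the test. Mevalonate diphosphate decarboxylase, Mvd, differed by 0.63 ± 0.13 (adjusted p = 0.0655), and it passed when NC-miR day 4 replicate 2 was left out (0.69, adjusted p = 0.0331). Mevalonate kinase, Mvk, differed by 0.58 ± 0.18 (adjusted p = 0.165), and the thiolase gene Acat2 by 0.40 ± 0.15 (adjusted p = 0.231). All 8 DSS libraries were above the normal ones for Mvd and Mvk. Phosphomevalonate kinase, Pmvk, differed by -0.14 ± 0.15 and overlapped the normal libraries.

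Both genes of the step to squalene were higher in the DSS mean without passing the test. Fdps makes farnesyl diphosphate, the branch point between sterols and prenylated proteins. The libraries gave it log2 values of 0.12 and 0.09 with NC-miR on day 2, 0.68 and 0.13 with NC-miR on day 4, -0.07 and 0.06 with miR-29a and 0.71 and 0.58 with miR-29b, against -0.13 and -0.65 in the normal libraries. All 8 DSS libraries were above both normal ones, but the lowest, miR-29a replicate 1, lay close to normal replicate 1. The difference was 0.68 ± 0.18 (adjusted p = 0.11). Fdft1, squalene synthase, differed by 0.50 ± 0.15 (adjusted p = 0.149), and NC-miR day 4 replicate 2, at -0.20, lay below normal replicate 2, at -0.17.

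Squalene is oxidised by Sqle and then closed by Lss into lanosterol, the first sterol of the route. The log2 values of Lss were 0.48 and 0.11 with NC-miR on day 2, 0.68 and 0.30 with NC-miR on day 4, 0.32 and 0.29 with miR-29a and 0.95 and 0.43 with miR-29b, against -0.79 and -0.73 in the normal libraries. The 2 normal libraries were close together and far below the others. Lss rose by 1.20 ± 0.17, or 2.3-fold, in the DSS mean (adjusted p = 0.0184). It also rose in the miR-29b group alone, by 1.45 ± 0.22 (adjusted p = 0.044), where 0.49% of all features were called, and 6 of the 10 fits with a library left out lost that call. Leaving out normal replicate 1 or 2 ended the call of the DSS mean (adjusted p = 0.151 and 0.204), with a difference that stayed between 1.14 and 1.27 over all 10 libraries left out in turn. Sqle differed by 0.74 ± 0.16 (adjusted p = 0.0661). It passed without NC-miR day 4 replicate 2 (0.79, adjusted p = 0.0458).

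Of the 7 genes that turn lanosterol into cholesterol, Sc4mol and Cyp51 rose. Sc4mol, the sterol C4-methyl oxidase, had log2 values of 0.14 and 0.14 with NC-miR on day 2, 0.71 and 0.23 with NC-miR on day 4, 0.26 and 0.38 with miR-29a and 0.38 and 0.43 with miR-29b, against -0.67 and -0.57 in the normal libraries. Only NC-miR day 4 replicate 1 stood clear of the other DSS libraries, on the high side. The rise was 0.95 ± 0.13, or 1.93-fold (adjusted p = 0.0179), and it lost its call without normal replicate 1 or 2 (adjusted p = 0.151 and 0.179). In the NC-miR day 4 group alone it rose by 1.09 ± 0.17 (adjusted p = 0.0454), a call that 9 of the 10 libraries left out in turn took away. There 2 of the 30 members were called, Idi1 and Sc4mol, against 0.383% of all features.

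Cyp51, lanosterol demethylase, had log2 values of 0.21 and 0.00 with NC-miR on day 2, 0.73 and 0.18 with NC-miR on day 4, 0.06 and 0.16 with miR-29a and 0.56 and 0.41 with miR-29b, against -0.65 and -0.52 in the normal libraries. The DSS libraries spread widely but did not reach the normal ones. The rise was 0.87 ± 0.15, or 1.83-fold (adjusted p = 0.0327), and 7 of the 10 libraries ended the call when left out. Hsd17b7, which reduces the keto group left by C4 demethylation, differed by 0.78 ± 0.17 (adjusted p = 0.0679), and Nsdhl, the C4 decarboxylating enzyme, by 0.45 ± 0.13 (adjusted p = 0.143). Both had all 8 DSS libraries above the normal ones.

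None of the other 3 genes of this group passed the test, and 2 of them, Tm7sf2 and Ebp, had negative differences. Tm7sf2, a sterol C14 reductase, is described because it ran the other way, a choice made after its values were seen. On the log2 scale it stood at -0.23 and -0.20 with NC-miR on day 2, 0.13 and -0.14 with NC-miR on day 4, -0.26 and -0.52 with miR-29a and -0.07 and -0.02 with miR-29b, against 0.28 and 0.36 in the normal libraries. All 8 DSS libraries lay below both normal ones, which held for 2 of the 30 members and for 7.62% of all features, and the difference of -0.48 ± 0.12 did not pass (adjusted p = 0.0896). Ebp, the sterol isomerase, differed by -0.22 ± 0.12, and Dhcr7, which makes cholesterol in the final reduction, by 0.06 ± 0.13.

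**Figure D2:**
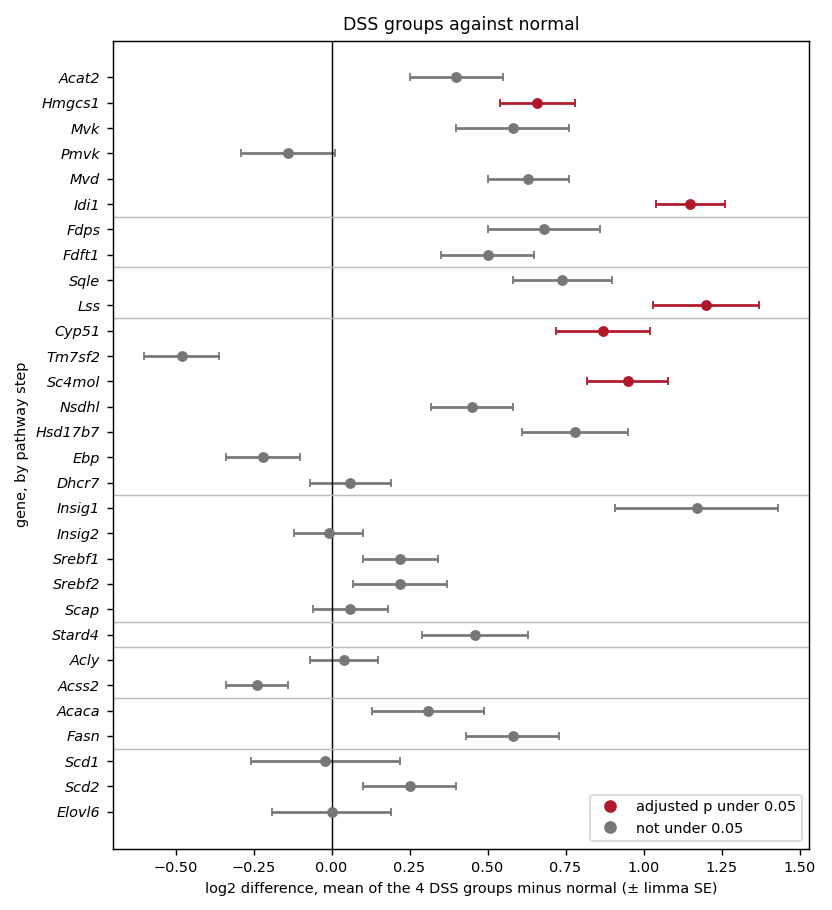
Log2 difference of the mean of the 4 DSS groups from normal (horizontal axis, with limma SE as bars) for each gene (vertical axis, by pathway step), with genes of adjusted p under 0.05 in red. Idi1, Lss and Insig1 lie above 1, of which Insig1 has the widest bar and did not pass, and Tm7sf2 is farthest to the left at -0.48.

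Among the regulators, Insig1 had the largest difference, but its libraries disagreed. In log2 units its libraries read 0.91 and 0.09 with NC-miR on day 2, -0.45 and 0.50 with NC-miR on day 4, 0.56 and 0.39 with miR-29a and 0.41 and 0.42 with miR-29b, against -0.84 and -0.79 in the normal libraries. All 8 DSS libraries were above both normal ones, by at least 0.35. The difference was 1.17 ± 0.26 (adjusted p = 0.0756), and it passed without NC-miR day 4 replicate 1 (1.29, adjusted p = 0.0367) or without NC-miR day 2 replicate 2 (1.28, adjusted p = 0.0374). The SREBP genes themselves did not pass, with differences of 0.22 ± 0.12 for Srebf1 (adjusted p = 0.391) and 0.22 ± 0.15 for Srebf2 (adjusted p = 0.475). Scap differed by 0.06 ± 0.12 and Insig2 by -0.01 ± 0.11. Without normal replicate 1 the difference of Scap was -0.11, and that of Insig2 was 0.02 when libraries were centred on their medians. These measurements are of mRNA, and the processing of SREBP protein was not measured.

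**Figure D3:**
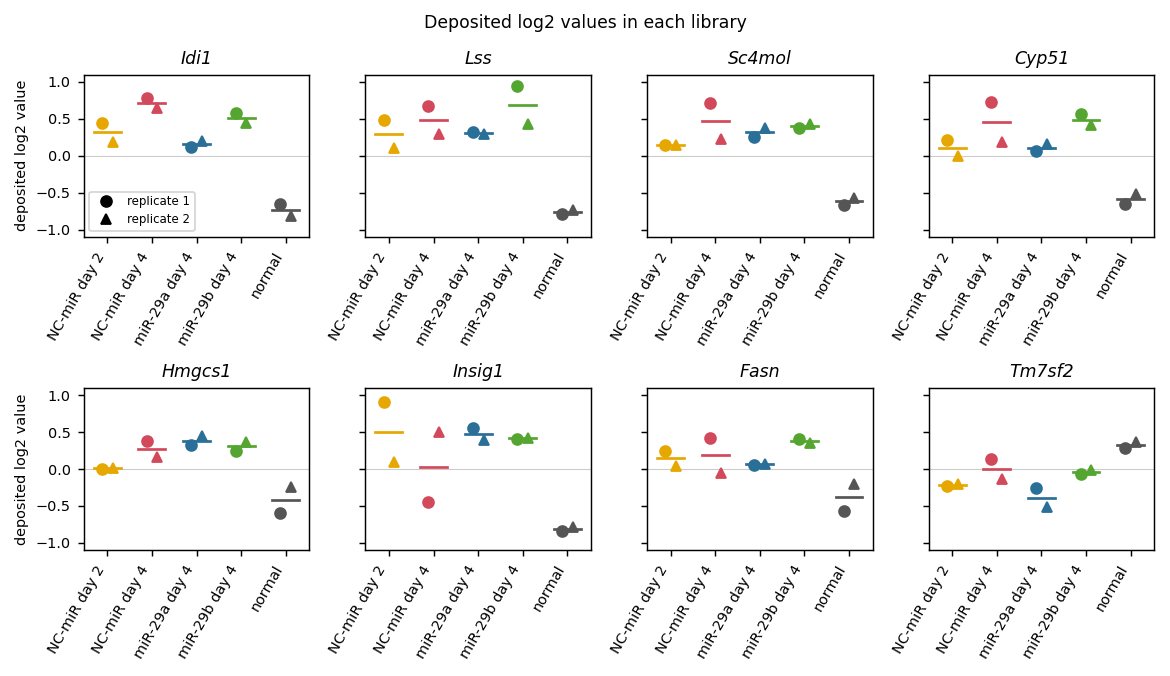
Deposited log2 values of 8 genes (vertical axes) by group (horizontal axes), with circles for replicate 1, triangles for replicate 2 and lines for group means. The DSS libraries of Idi1, Lss, Sc4mol, Cyp51, Hmgcs1, Insig1 and Fasn lie above both normal libraries, and those of Tm7sf2 lie below.

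Insig1 and the enzymes did not keep the same order of libraries. NC-miR day 4 replicate 1 had the highest value of all 10 libraries for 9 of the 17 enzymes and for 14 of the 30 members, where it was highest for 8.67% of all features. The median of the 17 enzymes above the normal mean was 0.88 in that library, against 0.42 to 0.78 in the other 7 DSS libraries. For Insig1 the same library was the lowest of the 8. It also stood apart in markers of squamous epithelium. The median of the 4 tested squamous markers was 4.59 above the normal mean there, against -0.11 to 0.57 in the other 7 DSS libraries, and Krt14 stood at 6.05. Of the 10 listed squamous markers, Krt4, Ivl and Sprr3 were at the lower limit in all libraries. The part of squamous tissue in the enzyme values was not tested. Without this library, 5 members still passed in the DSS mean, with Insig1 in and Hmgcs1 out, and the median over the 30 members was 0.37.

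**Figure D4:**
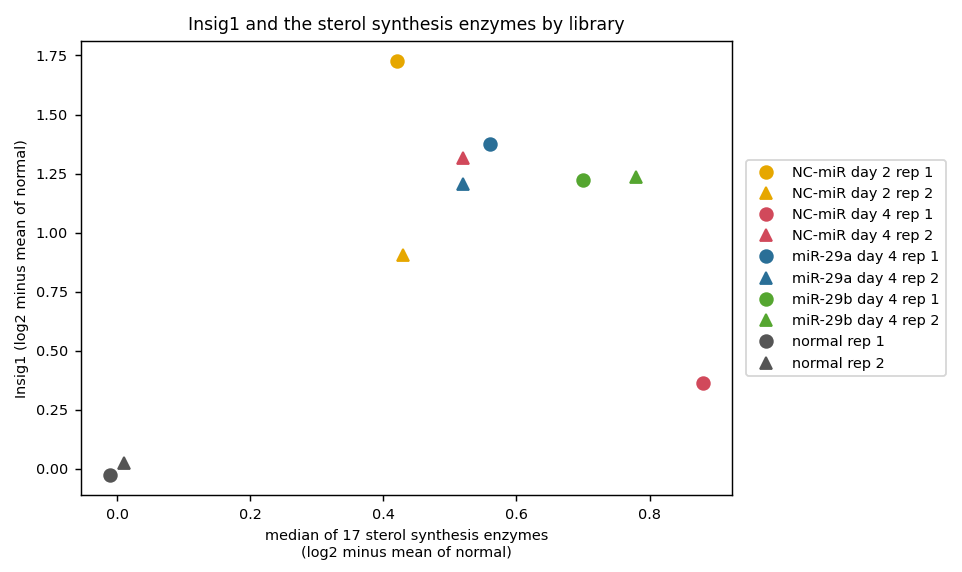
Insig1 (vertical axis) against the median of the 17 sterol synthesis enzymes (horizontal axis) in each library, both as log2 values minus the mean of the normal libraries. NC-miR day 4 replicate 1 combines the highest enzyme median, 0.88, with the lowest Insig1 of the 8 DSS libraries, and both normal libraries lie near 0.

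The branch toward fatty acids held no call. None of the 7 genes of acetyl-CoA supply, fatty acid synthesis, desaturation and elongation was called in any comparison, and their median in the DSS mean was 0.04. Fasn, the fatty acid synthase, had log2 values of 0.25 and 0.04 with NC-miR on day 2, 0.42 and -0.05 with NC-miR on day 4, 0.06 and 0.07 with miR-29a and 0.40 and 0.35 with miR-29b, against -0.57 and -0.20 in the normal libraries. It was the one gene of the 7 with all DSS libraries above the normal ones, and its difference was 0.58 ± 0.15 (adjusted p = 0.113). Acaca, which makes malonyl-CoA for Fasn, differed by 0.31 ± 0.18 (adjusted p = 0.419).

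Acss2 activates acetate to acetyl-CoA in the cytosol. Its log2 values were -0.13 and 0.05 with NC-miR on day 2, -0.02 and -0.03 with NC-miR on day 4, -0.08 and 0.06 with miR-29a and -0.17 and -0.03 with miR-29b, against 0.16 and 0.24 in the normal libraries. All 8 DSS libraries lay below the normal ones, with a difference of -0.24 ± 0.10 that did not pass (adjusted p = 0.291). Acly, which makes acetyl-CoA from citrate, differed by 0.04 ± 0.11.

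The desaturases and the elongase showed no common direction. Scd2 had log2 values of -0.09 and 0.16 with NC-miR on day 2, 0.43 and 0.24 with NC-miR on day 4, 0.12 and 0.06 with miR-29a and 0.25 and 0.04 with miR-29b, against 0.14 and -0.33 in the normal libraries. The groups overlapped, and the difference was 0.25 ± 0.15 (adjusted p = 0.434). Scd1, its paralogue, differed by -0.02 ± 0.24 and the elongase gene Elovl6 by -0.00 ± 0.19, just under 0, and both turned sign when libraries were centred on their medians (0.01 and 0.02). How reads that match both Scd1 and Scd2 were assigned is not given in the sources used here. Adipocytes also make these desaturases. Adipocyte markers had medians of 0.05 to 1.48 above the normal mean in the 8 DSS libraries and of -0.47 and 0.47 in the normal libraries over 9 tested markers, and their part in these values was not tested. All 6 sebaceous gland markers were at the lower limit in every library.

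Stard4 carries cholesterol between membranes. The libraries gave it log2 values of 0.31 and 0.09 with NC-miR on day 2, 0.20 and 0.43 with NC-miR on day 4, 0.22 and 0.42 with miR-29a and 0.24 and -0.28 with miR-29b, against -0.42 and -0.10 in the normal libraries. The miR-29b replicates disagreed, one of them lying between the 2 normal libraries. The difference of the DSS mean was 0.46 ± 0.17 (adjusted p = 0.226).

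Of the 10 listed absorptive colonocyte markers, 3 passed as higher in the DSS mean, none passed as lower, and 3 had negative differences, down to -0.36. In that comparison 1.07% of the 13050 features tested were called as higher and 45 features as lower. Slc9a3 was at the lower limit in 2 libraries, both normal, at -1.51 and -1.50, so only DSS groups brought it past the filter. The median of the absorptive markers was 0.23 to 0.77 above the normal mean in the 8 DSS libraries and -0.11 and 0.11 in the normal libraries. That of the 8 columnar markers was -0.13 to 0.49 and -0.12 and 0.12. The miR-29b libraries were the highest of the 8 for both lists, at 0.68 and 0.77 for absorptive cells and 0.41 and 0.49 for columnar epithelium. Goblet cell markers had medians of 0.04 to 0.73 in the DSS libraries and of -0.07 and 0.07 in the normal libraries over 7 genes. Smooth muscle markers had medians of -0.37 to 0.23 in the DSS libraries and of -0.15 and 0.15 in the normal libraries over 8 genes. Of the 8 tested B cell markers 1 passed as lower, where 45 of 13050 features did, and all 8 had negative differences. Their medians were -2.07 to -0.71 in the DSS libraries and -0.05 and 0.05 in the normal libraries. Cxcr5 and Blk were each at the lower limit in 3 DSS libraries. Dividing cell markers had medians of -1.31 to 0.49 in the DSS libraries and of -0.23 and 0.23 in the normal libraries over 10 genes. The part of any of these cell types in the enzyme differences was not tested.

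Each DSS group shares the normal libraries as its reference, so the 4 comparisons with normal are not independent. The median over the 17 enzymes was 0.45 for NC-miR day 2, 0.70 for NC-miR day 4, 0.54 for miR-29a and 0.72 for miR-29b. In the day 2 group, 1 of 30 members was called, against 1.22% of all features, and in the miR-29a group 1 of 30, against 0.421%. In both groups that member was Idi1. Without normal replicate 1 or without normal replicate 2, no member was called in any of the 4 groups. Calls over all features became fewer in these fits as well.

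Between DSS groups, no member passed the test. NC-miR day 4 against NC-miR day 2 had 25 of 30 members with a positive difference and a median of 0.24, where the median of all features was 0.02 and 0.0153% of them were called. Both day 4 libraries lay above both day 2 libraries for 12 of the 30 members, against 19.8% of all features. At an unadjusted p under 0.05, which 6.41% of all features reached, Acat2 (0.51 ± 0.18), Idi1 (0.40 ± 0.14) and Acly (0.34 ± 0.13) were higher on day 4 and Scd1 (-0.81 ± 0.30) was lower. The adjusted p of these 4 was 0.723 to 0.754. Leaving out NC-miR day 4 replicate 1 gave a median of 0.07, and leaving out its replicate 2 gave 0.38.

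MiR-29a against NC-miR on day 4 had 23 of 30 members with a negative difference and a median of -0.14, where the median of all features was 0.02. Members called numbered 0 at the adjusted threshold, as did all features (0% called), and 4 members were lower at an unadjusted p under 0.05, which 2.62% of all features were. These were Idi1 (-0.55 ± 0.14, adjusted p = 0.549), Acat2 (-0.54 ± 0.18), Nsdhl (-0.46 ± 0.17) and Tm7sf2 (-0.39 ± 0.15). The direction of the median rested on NC-miR day 4 replicate 1, the library with high squamous markers, since it was 0.02 without it. MiR-29b against NC-miR on day 4 had a median of 0.04, with 0 members and 0% of features called. The median became 0.22 when NC-miR day 4 replicate 1 was left out and -0.07 when its replicate 2 was. At an unadjusted p under 0.05, 2 of the 30 members were higher in miR-29b, Pmvk (0.53 ± 0.20) and Mvd (0.40 ± 0.17), and none was lower. This was a smaller share than the 12.5% of all features that reached it.

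MiR-29a against miR-29b, which share day, carrier and injections, had 23 of 30 members with a negative difference and a median of -0.21, where the median of all features was 0.01. Neither any member nor any feature (0%) passed the adjusted threshold. For 18 of the 30 members (60%) both miR-29b libraries lay above both miR-29a libraries, against 19.7% of all features, and 12 of these were sterol synthesis enzymes. Insig2 alone had both miR-29a libraries above both miR-29b libraries, against 20.3% of all features. At an unadjusted p under 0.05, which 3.71% of all features reached as lower, 7 members were lower in miR-29a. Among them were early steps of the mevalonate route, with Mvk at -0.79 ± 0.23 and Pmvk at -0.68 ± 0.20, each with adjusted p = 0.665. The log2 values of Mvk were -0.10 and -0.17 in the miR-29a libraries, against 0.67 and 0.63 in the miR-29b libraries. Those of Pmvk were -0.15 and -0.24 in the miR-29a libraries, against 0.45 and 0.53 in the miR-29b libraries. In both genes the replicates of a group lay close together and the groups were well apart, and they were picked for this after their values were seen. The other 5 were Fdps (-0.65 ± 0.22), Acat2 (-0.57 ± 0.18), Mvd (-0.43 ± 0.17), Idi1 (-0.35 ± 0.14) and Tm7sf2 (-0.34 ± 0.15). The median over the 30 members stayed between -0.28 and -0.21 with each library left out in turn. Columnar epithelium markers had medians of 0.07 and 0.24 in the miR-29a libraries, against 0.41 and 0.49 in the miR-29b libraries. In miR-29a minus miR-29b, 7 of these 8 markers were negative (median -0.40), as were 7 of 7 goblet cell markers (median -0.30) and 7 of 10 absorptive colonocyte markers (median -0.25). Positive differences were seen for 8 of 8 B cell markers (median 0.66) and 9 of 10 dividing cell markers (median 0.40). The dividing cell medians per library overlapped, at -0.68 and 0.02 with miR-29a against -1.31 and -0.15 with miR-29b. Goblet cell medians overlapped too, at 0.11 and 0.25 against 0.21 and 0.73. Those of B cells, -0.71 and -1.46 against -1.81 and -1.66, did not, nor did those of absorptive colonocytes, 0.47 and 0.56 against 0.68 and 0.77. None of these markers passed the adjusted threshold, and the part of these cell types in the differences of the members was not tested.

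**Figure D5:**
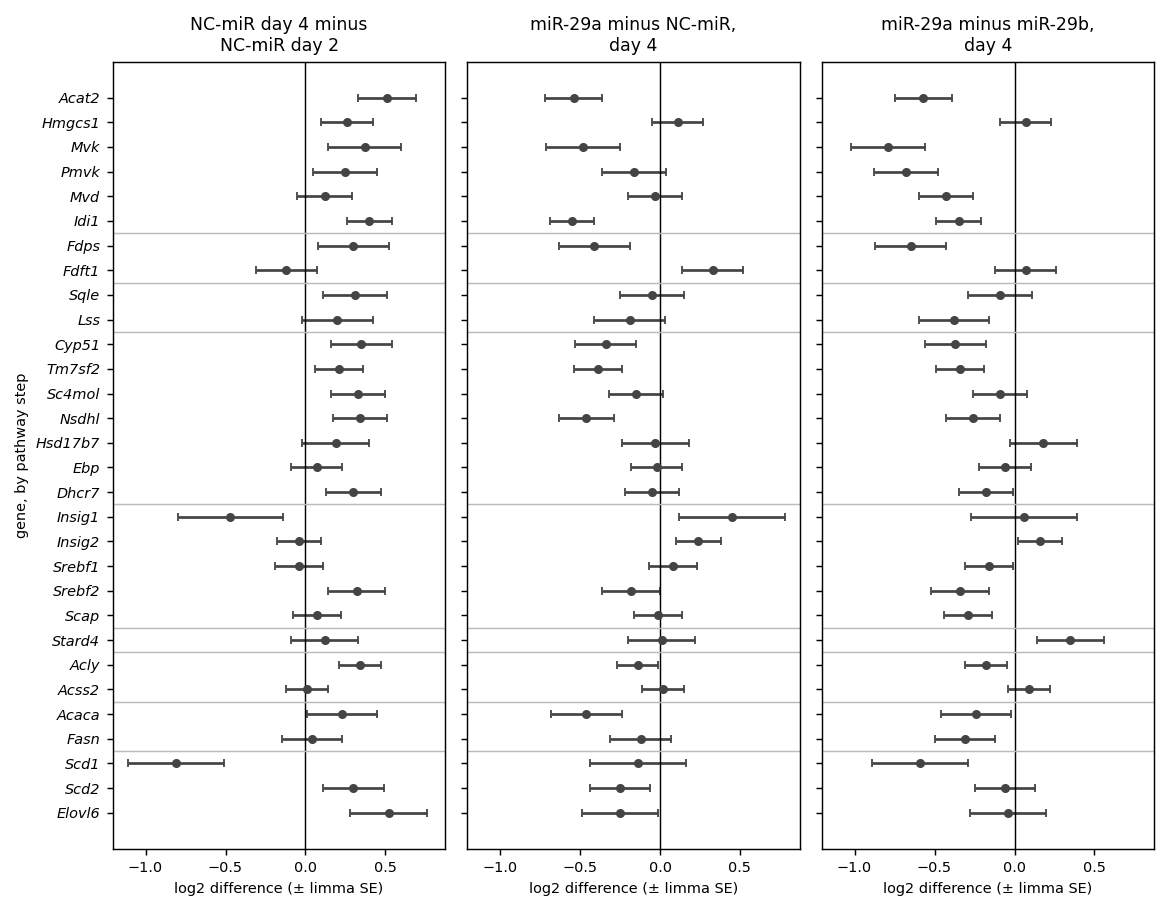
Log2 differences between DSS groups (horizontal axes, with limma SE as bars) for each gene (vertical axis, by pathway step), in 3 panels for NC-miR day 4 minus day 2, miR-29a minus NC-miR on day 4, and miR-29a minus miR-29b on day 4. Mvk lies at -0.79 and Pmvk at -0.68 in the right panel, and none of the differences shown passed an adjusted p of 0.05.

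Other genes of lipid handling were counted from 4 lists, and none of them passed the test in the DSS mean. Among 7 genes of SREBP processing and degradation the median difference was 0.02. Erlin1, which takes part in sterol-regulated protein degradation, differed by 0.45 ± 0.13 (adjusted p = 0.141), and the site-1 protease gene Mbtps1 by -0.13 ± 0.10. Among 14 tested genes of fatty acid and triglyceride synthesis the median was 0.14, the triglyceride synthase Dgat2 differed by 0.59 ± 0.12 (adjusted p = 0.0661) and the elongase Elovl5 by -0.37 ± 0.14. The 4 oxysterol enzymes had a median of 0.28, with Cyp7b1 at 0.45 ± 0.26 and Ch25h at 0.40 ± 0.36. Cyp7b1 was at the lower limit in 3 libraries, and its log2 values in the normal libraries were -0.18 and -0.23, so its difference depends on that limit. The 6 tested upstream regulators had a median of 0.10, with Nr1h3, which encodes the oxysterol receptor LXRα, at 0.49 ± 0.20 and Mlxipl, which encodes the glucose-responsive factor ChREBP, at -0.56 ± 0.19.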

How the data were processed

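RNA from mouse colorectum was sequenced in 10 libraries from stranded mRNA preparations, per the labels. The submitters' processing notes list build mm10, Cuffnorm 2.2.1, TopHat2 2.0.13, SAMtools 0.1.19 and Bowtie2 2.2.3, without settings. Per the file headers the values are FPKM, but the deposited values are log2 values relative to an unnamed baseline of each gene, with low values set to a floor of unstated height. Base 2 was checked on the decimals: 98.5% of 5264 values fell on a grid of 6 significant digits (within 0.1 of a step), against 19.8% with base e and 22% with base 10. Read depth is unknown. Per library, 10347 to 10607 of 23284 features were at the floor.

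A feature was tested if some group had both its libraries above the floor (13050 features). limma 3.58.1 in R 4.3.3 fitted 5 group means to all 10 libraries, with 5 residual and 3.26 prior degrees of freedom, no trend and no robust option. All p are 2-sided and adjusted by the Benjamini-Hochberg method over all features tested. Each error is a limma standard error, from groups of n = 2. The script was tested on simulated data. Members called in any comparison, and the member of smallest p in each pathway step, are given in every library. Related genes are named when called or among the 2 of smallest p of their list. Some related genes are not reported here. The members and lists were chosen with earlier results of these data known. Groups follow the labels. The names under which the 4 NC-miR libraries were deposited could be read as another pairing of them, which would change every comparison that uses an NC-miR group on its own and, through the shared spread, the p-values of the others. Alternatives were no filter, a stricter filter, fits of only the libraries compared, robust variances, median centring, a replicate block and each library left out. Motifs were searched in RefSeq windows of GRCm38.p6.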

Additional observations from a re-analysis of the deposited data

How the results depend on the processing

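With no filter on low values, 0 members were called for NC-miR day 2 against normal, 1 for NC-miR day 4, 0 for miR-29a, 1 for miR-29b, 1 in the DSS mean and 0 by the F test, against 1, 2, 1, 2, 5 and 1 as reported. Over all 23284 features that setting called 28, 22, 14, 29 and 65 in these 5 comparisons, against 159, 50, 55, 64 and 185 of 13050 as reported. Fits of only the libraries compared called 0 members in each of the 4 groups, where 26, 20, 24 and 13 of 13050 features were called. Robust variances called 0 members for miR-29a, where 54 features were called. Replicate numbers were not used as pairs in the reported fits. Deviations of same-numbered libraries correlated at -0.29 to 0.12 over 10 pairs of groups. Each correlation takes 12120 features together, so it cannot exclude a pairing that affects some genes. With the replicate block, 2 members were called for NC-miR day 2, 1 for NC-miR day 4 and 0 for miR-29a. Over all features, 138, 30 and 37 were called there in that order. Member counts for miR-29b and the DSS mean moved by less than 1.5 times. Centring libraries on their medians turned the DSS mean of Elovl6 to 0.02, of Insig2 to 0.02 and of Scd1 to 0.01.

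With each library left out in turn, members called were 0 to 2 for NC-miR day 2, 0 to 3 for NC-miR day 4, 0 to 1 for miR-29a, 0 to 6 for miR-29b, 0 to 6 in the DSS mean and 0 to 1 by the F test. The 6 for miR-29b came without either NC-miR day 4 library. In the DSS mean, 0 came without normal replicate 2 and 1 without normal replicate 1. Member medians were 0.24 to 0.35 for NC-miR day 2, 0.34 to 0.56 for NC-miR day 4, 0.14 to 0.33 for miR-29a, 0.07 to 0.38 for NC-miR day 4 against day 2, -0.35 to 0.02 for miR-29a against NC-miR and -0.07 to 0.22 for miR-29b against NC-miR. The DSS mean ran from -0.15 to 0.14 for Elovl6, -0.04 to 0.03 for Insig2, -0.20 to 0.16 for Scd1 and -0.11 to 0.24 for Scap. Members with all DSS libraries above the normal ones numbered 13 to 17 of 30 (6.08% to 12.6% of all features). Those with the miR-29b above the miR-29a libraries numbered 19 to 21 of 30 (30.6% to 39.7% of all features). Those with the NC-miR day 4 above the day 2 libraries numbered 13 to 24 of 30 (31.7% to 40.5%). The 13 faced 37.3% of all features, without NC-miR day 4 replicate 1. These counts were chosen as alternatives after seeing the data. Leaving out a library can only keep or raise such a count, so the ranges cannot show that it is stable. A lone library of a group was assumed to vary like the other groups. With 2 libraries per group and unknown depth, differences near their standard error cannot be told from the spread between libraries.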
